A study of Mus musculus with 2 samples.

Results

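The genes described are 6 subunits of the phagocyte NADPH oxidase, chosen by name for their role in the enzyme from a table of 49315 mouse genes. They are the membrane subunits Cybb and Cyba, the cytosolic subunits Ncf1 and Ncf4, and the GTPases Rac1 and Rac2. RNA was sequenced from cells labelled as macrophages of the dorsal root ganglion, which holds the cell bodies of sensory neurons. There was 1 library from mice kept in normoxia (21% oxygen) and 1 from mice under chronic intermittent hypoxia, a model of the oxygen dips of sleep apnoea. Chamber oxygen fell from 21% to 8% and back in cycles of 6 min, 10 per hour, for 8 h a day over 14 days. The normoxia mice had the same chamber routine with room air throughout, and cells were collected about 18 h after the final session. Strain, age, sex, genotype, the number of mice pooled and how cells were obtained were not given in the sources used here. Only 1 cue, the initial of its code, placed the hypoxia column of the table. A single library stood for each group, so spread among replicates could not be measured and no p-value was computed. Every interval below is a 95% interval that covers counting error only, that of reads unless molecules are named.

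The phagocyte oxidase moves electrons from NADPH across a membrane to oxygen and so makes superoxide, which phagocytes use against microbes and which also acts as a signal in inflamed tissue. Cybb and Cyba encode the flavocytochrome in the membrane. In a resting cell Ncf1 and Ncf4 belong to a complex in the cytosol, and on activation it joins the flavocytochrome together with a Rac GTPase in its GTP-bound state. Macrophages and neutrophils both express the complex. Rac2 is mostly restricted to blood cells, whereas Rac1 is found in nearly all cells.

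The normoxia library held 2171348 counts over 4640 genes and the hypoxia library 145056 counts over 2050 genes, and 1158 genes were counted in both. Counts came in large steps, with a median of 230 per counted gene in normoxia and 42 in hypoxia. If a gene counted in 1 library alone stems from 1 starting molecule, an assumption that was not tested, a molecule gave about 229 reads in normoxia and 39 in hypoxia. The libraries would then hold about 9482 and 3719 molecules, and intervals called molecule intervals below divide the counts by these numbers. The labelled cell type was checked against its markers. Of 11 macrophage markers 10 were counted in normoxia, with Mertk at 0, and they took 0.491% of counts. In hypoxia Cx3cr1 alone was counted, with 6 counts, and Adgre1, Cd68, Csf1r, C1qa, C1qb, C1qc, Mertk, Fcgr1, Mrc1 and Cd163 were at 0, so the label is not borne out by these markers in the hypoxia library. Of 14 neutrophil markers 10 were counted in normoxia, with 1.83% of counts and Cxcr2, Csf3r, Elane and Ly6g at 0. In hypoxia 11 were counted, with 10.3% of counts and Mmp8, Mmp9 and Mpo at 0. Monocyte markers took 0.494% of counts in normoxia and 0.556% in hypoxia, and red cell markers 9.53% and 7.87%. Satellite glia markers, among them Apoe, which macrophages also express, took 0.594% and 0.230%. Markers of fibroblasts (1049 counts) and B cells (611) were counted in normoxia alone, those of sensory neurons (60) in hypoxia alone and those of Schwann cells with 1 and 58 counts, while T and NK cell and endothelial markers had 0 in both. Neutrophils also express the oxidase, and the part of other cells in the values below was not tested. In bulk RNA, fewer cells of a type and less RNA per cell cannot be told apart.

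All 6 subunits were counted in normoxia and 5 in hypoxia, where Rac1 had 0 counts. Their sum was 7677 normoxia counts, 0.354% of that library (0.346 to 0.361), and 448 hypoxia counts, 0.309% (0.281 to 0.339). Cyba was the most abundant subunit per gene length in normoxia. Its TPM was lower in hypoxia and that of Ncf4 was higher, with intervals on reads that lie apart. The TMM ratio of Ncf4 did not reach 2-fold, and the molecule intervals of both genes included 1.

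Cyba encodes p22phox, the small subunit that stabilises the flavocytochrome and docks Ncf1 (ENSMUSG00000006519, chromosome 8, 122424776 to 122432930, minus strand; all gene positions are from GENCODE M21 on GRCm38). It had 2611 normoxia counts and 56 hypoxia counts. In TPM, the authors' deposited level by gene length, this was 2117 (2037 to 2200) and 522 (394 to 677), and the intervals lie apart. The length closely followed the exonic bases of all annotated transcripts of a gene merged, 1039 for Cyba and 5808 for Cybb. Order and fold between genes in TPM thus depend in part on the annotation. After TMM scaling (trimmed mean of M values, which sets a factor from genes counted in both libraries), the ratio of hypoxia over normoxia was 0.184 (0.139 to 0.240), or 5.44-fold lower, and on total counts it was 0.321 (0.242 to 0.418). Both ratios are below 1, and so are those on DESeq2 size factors (0.191) and on a housekeeping list (0.297). On molecules the counts came to about 11.4 and 1.44, and the molecule interval of the TMM ratio ran from 0.011 to 1.003, which reaches 1.

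Cybb encodes gp91phox, also named NOX2, the catalytic subunit that carries the flavin and the haems (ENSMUSG00000015340, chromosome X, 9435252 to 9487771, minus strand). It had 1594 normoxia counts and 128 hypoxia counts. Its TPM was 231 (220 to 243) and 213 (178 to 254), so its level per length overlapped between the libraries. The ratio of counts was 0.689 (0.571 to 0.825) with TMM and 1.20 (0.996 to 1.44) on total counts, so its direction turned with the scaling. The molecule interval with TMM was 0.125 to 2.92. Cybb and Cyba proteins pair in the membrane, and the balance of their transcripts is free of any scaling between libraries. Cyba stood 9.16-fold above Cybb in TPM in normoxia and 2.45-fold above it in hypoxia. Both folds rest on the gene lengths used, whereas the change between libraries does not. The count ratio of Cybb to Cyba was 3.74-fold higher in hypoxia (2.70 to 5.25 on reads, 0.286 to 269.5 on molecules).

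The start regions of the subunits are shown because Cybb and Cyba, whose proteins form 1 complex, differed in their balance between libraries on reads. The molecule interval of that balance included 1, and any link between it and the start regions was not tested. RefSeq windows from 250 bases before to 50 bases after the start were matched for 3 of the 6 members, Cybb, Cyba and Ncf1, on build GRCm38.p6. The Cybb window lies inside the span of the gene in GENCODE M21 (9435252 to 9487771), so the upstream end of that span is not covered. The motifs sought on both strands were GAGGAA, the purine-rich core of sites of the myeloid factor PU.1, CCAAT, and ACGTG and GCGTG, the cores of hypoxia response elements. They do not overlap each other in these windows. Capitals mark GAGGAA or its reverse complement, and CCAAT.
Cybb, chrX:9469275-9469574, minus strand: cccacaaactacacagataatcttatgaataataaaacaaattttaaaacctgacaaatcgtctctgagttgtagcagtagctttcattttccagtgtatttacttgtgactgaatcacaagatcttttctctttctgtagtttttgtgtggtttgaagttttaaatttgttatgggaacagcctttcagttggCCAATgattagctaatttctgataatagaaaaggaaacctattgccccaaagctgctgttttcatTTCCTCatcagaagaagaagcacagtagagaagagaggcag
Cyba, chr8:122432891-122433190, minus strand: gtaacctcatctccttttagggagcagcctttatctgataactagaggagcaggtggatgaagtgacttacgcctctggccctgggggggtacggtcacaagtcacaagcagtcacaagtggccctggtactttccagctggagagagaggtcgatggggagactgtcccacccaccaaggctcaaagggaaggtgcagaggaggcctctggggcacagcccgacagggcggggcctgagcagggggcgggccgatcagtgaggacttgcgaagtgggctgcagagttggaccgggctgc
Ncf1, chr5:134229576-134229875, minus strand: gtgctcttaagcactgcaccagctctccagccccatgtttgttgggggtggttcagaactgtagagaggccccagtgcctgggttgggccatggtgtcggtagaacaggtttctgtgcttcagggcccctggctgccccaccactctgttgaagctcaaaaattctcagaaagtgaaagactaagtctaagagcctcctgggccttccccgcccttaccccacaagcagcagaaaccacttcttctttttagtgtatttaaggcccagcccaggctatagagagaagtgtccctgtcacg
The Cybb window held 1 GAGGAA match, read as its reverse complement from base 10 of the transcript, and 1 CCAAT starting 56 bases before the start. The Cyba and Ncf1 windows held neither. None of the 3 windows held ACGTG or GCGTG. Of 32851 promoter windows of this length, 28.3% held GAGGAA, 37.4% CCAAT, 19.6% ACGTG and 32.4% GCGTG. The windows also differed in base composition, with 35.3% G and C in Cybb, 60.7% in Cyba and 54.0% in Ncf1, beside a median of 52.7% over all windows. Only 3.98% of windows had less G and C than that of Cybb. CpG pairs numbered 1 in Cybb, 9 in Cyba and 3 in Ncf1, beside a median of 7. These matches describe the letters of the windows and do not show binding.

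Ncf4 encodes p40phox, a cytosolic subunit that binds phosphatidylinositol 3-phosphate on phagosomes (ENSMUSG00000071715, chromosome 15, 78244801 to 78262580, plus strand). It had 663 normoxia counts and 129 hypoxia counts, and its TPM was 276 (256 to 298) and 618 (516 to 734). It was the only subunit whose TPM interval in hypoxia lay above that in normoxia, and the share of all genes that did so was not computed. This depends on the scaling that TPM carries, since on total counts the interval of the Ncf1 ratio also lay above 1 (1.18 to 2.08). The ratio of counts was 1.67 (1.37 to 2.02) with TMM and 2.91 (2.39 to 3.52) on total counts. It was above 1 with all 4 scalings, whereas it passed the 2-fold size only on total counts and on the housekeeping list (2.69). The molecule interval with TMM was 0.241 to 12.5, on about 2.90 and 3.31 molecules.

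Ncf1 encodes p47phox, the organiser that is phosphorylated on activation and carries the complex to Cyba (ENSMUSG00000015950, chromosome 5, 134220053 to 134229625, minus strand). It had 531 normoxia counts and 56 hypoxia counts. Its TPM of 122 (112 to 133) and 148 (112 to 192) overlapped between the libraries. Its ratio was 0.904 (0.674 to 1.19) with TMM and 1.58 (1.18 to 2.08) on total counts, so its direction turned with the scaling. The gene shares 408 of its 3663 exonic bases with Gtf2ird2 on the other strand, which had 0 counts in both libraries.

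Rac1 and Rac2 encode closely related GTPases, either of which can complete the active oxidase. Rac2 (ENSMUSG00000033220, chromosome 15, 78559167 to 78572783, minus strand) had 1000 normoxia counts and 79 hypoxia counts. Its TPM was 278 (261 to 295) and 252 (199 to 314), which overlap. The ratio of Rac2 was 0.678 (0.532 to 0.853) with TMM and 1.18 (0.928 to 1.49) on total counts, so its direction turned with the scaling. Rac1 (ENSMUSG00000001847, chromosome 5, 143503634 to 143528036, minus strand) had 1278 counts and a TPM of 239.5 (226.5 to 253) in normoxia, and 0 counts in hypoxia. A count of 0 allows up to 3 counts, which is a TPM of 6.46 for Rac1 in hypoxia. On that floor Rac1 was at least 49.7-fold lower with TMM and at least 28.5-fold lower on total counts. These bounds hold for reads alone. Rac1 came to about 5.58 molecules in normoxia, and the molecule interval of its ratio ran from 0 to 1.37 with TMM and from 0 to 2.39 on total counts, both of which include 1. Its 589 CPM (counts scaled to the library's total) in normoxia is below the 807 CPM that 3 molecules hold in hypoxia, so a library of this size could miss it.

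Reads of near copies can be misassigned, and Rac1 and Rac2 are relatives. No stretch of 50 bases was shared by the annotated transcripts of both genes. Rac1 has another partner in the annotation. It shares 2309 of its 4496 exonic bases (51.4%) with Daglb on the other strand, which had 29 normoxia counts and 0 hypoxia counts. The strand setting of the counting was not given in the sources used here, and without strand the reads of such a pair cannot be told apart. Cybb and Ncf4 shared no stretch of 50 bases with any other annotated gene.

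**Figure D1:**
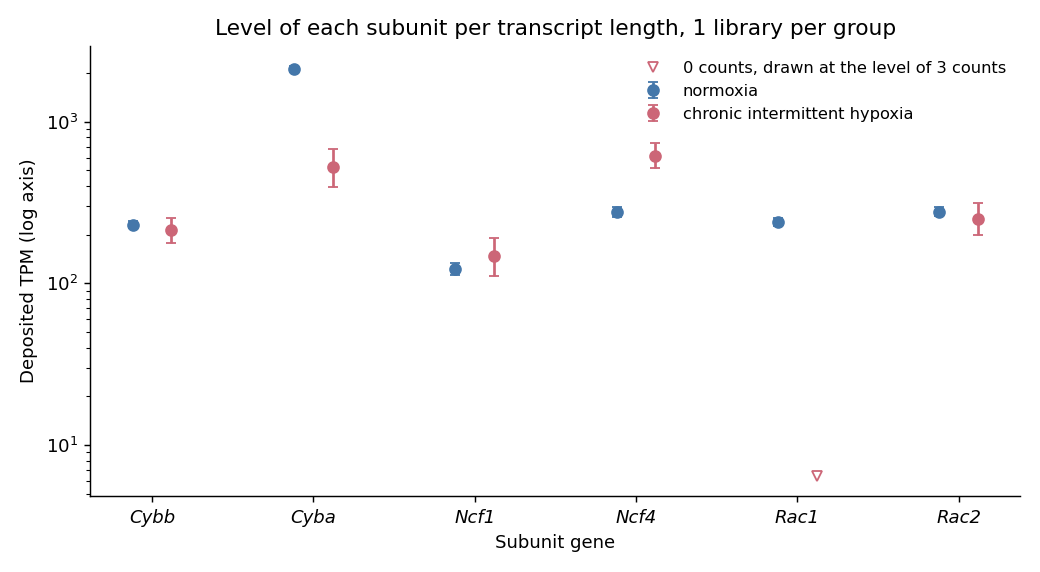
Deposited TPM of each subunit gene (log axis) in the normoxia library and the chronic intermittent hypoxia library, with 95% counting intervals from the reads. Cyba stands at 2117 in normoxia and 522 in hypoxia, Ncf4 at 276 and 618, and Rac1, at 0 counts in hypoxia, is drawn as an open triangle at the level of 3 counts.

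The order of the subunits per gene length differed between the libraries, as the plot of TPM by subunit shows. Within each library that order rests in part on the annotated length of each gene. In normoxia Cyba came first, and its TPM was exceeded by 0.970% of counted genes. Rac2 and Ncf4 (278 and 276) overlapped, then came Rac1 and Cybb (239.5 and 231), which also overlapped, and Ncf1 was lowest at 122. In hypoxia Ncf4 and Cyba (618 and 522) overlapped at the top. Rac2 and Cybb (252 and 213) overlapped below them, the interval of Cybb overlapped that of Ncf1 at 148, and Rac1 was at 0. The intervals of Ncf4 and Rac1 lay apart in normoxia, by little.

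**Figure D2:**
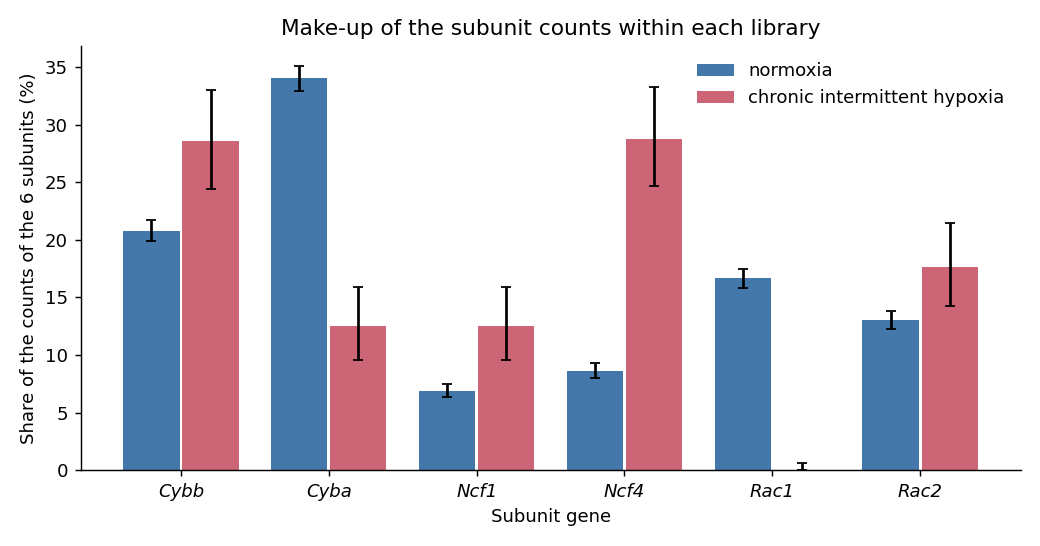
Share of the counts of the 6 subunits held by each gene within the normoxia library and the chronic intermittent hypoxia library, in percent with exact 95% intervals on reads (for the 0 of Rac1, the share of 3 counts). Cyba held 34.0% of 7677 counts in normoxia and 12.5% of 448 in hypoxia, while Ncf4 held 8.64% and 28.8%.

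Shares within the subunit counts do not depend on how the libraries are scaled. In normoxia Cyba held 34.0% of these counts (33.0 to 35.1), and in hypoxia it held 12.5% (9.58 to 15.9). Ncf4 held 8.64% (8.02 to 9.29) and 28.8% (24.6 to 33.2). Rac1 held 16.6% (15.8 to 17.5) in normoxia and 0 of 448 counts in hypoxia, which allows a share of up to 0.670% at 3 counts. Cybb went from 20.8% to 28.6%, Ncf1 from 6.92% to 12.5% and Rac2 from 13.03% to 17.6%, each with intervals on reads that lie apart. Shares sum to a fixed total, so lower shares of Cyba and Rac1 raise those of the others. The ratios of Cybb, Ncf1 and Rac2 were 0.689, 0.904 and 0.678 with TMM, and 1.20, 1.58 and 1.18 on total counts. Of the 15 pairs of subunits, 12 had a count ratio whose interval on reads excluded equality between libraries. Of the 10 pairs without Rac1 it was 7. The share among pairs of other genes was not computed, so these counts cannot be read as a trait of the subunits. The largest of these was Ncf4 over Cyba, 9.07-fold higher in hypoxia (6.49 to 12.8 on reads, while the molecule interval of the inverse ran from 0.0016 to 1.87). The 3 pairs that met no difference on reads were those among Cybb, Ncf1 and Rac2. The ratio of Cybb to Rac2 was 1.02 (0.753 to 1.38), that of Cybb to Ncf1 0.761 (0.543 to 1.08) and that of Ncf1 to Rac2 1.33 (0.915 to 1.94). On molecules none of the 15 intervals excluded equality.

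A size rule in place of a test called a gene when it had at least 50 counts over both libraries, a TMM ratio of 2-fold or more in either direction and an interval on reads that excludes 1. By this rule 2 of the 6 subunits were lower in hypoxia, Cyba and Rac1, against a background of 75.7% of 4215 measured genes, and none was higher, against 11.9%. On total counts Cyba and Rac1 were again lower (background 71.5%) and Ncf4 was higher (background 16.1%). The same 2 subunits were lower on DESeq2 size factors (background 75.5% lower and 12.1% higher) and on the housekeeping list (background 72.4% lower and 15.5% higher). Of these 2 scalings the housekeeping list called Ncf4 higher. Among the 1108 measured genes counted in both libraries, 27.9% were lower and 24.9% higher with TMM, and of the 5 subunits counted in both, 1 was lower. The median log2 ratio was −0.55 over the 6 subunits, against −7.51 over all measured genes, most of which had 0 counts in hypoxia. Over the 5 subunits counted in both it was −0.54, against −0.11 over such genes. No subunit met the size rule with the molecule interval, which 1.3% of measured genes met as lower and 0.19% as higher.

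**Figure D3:**
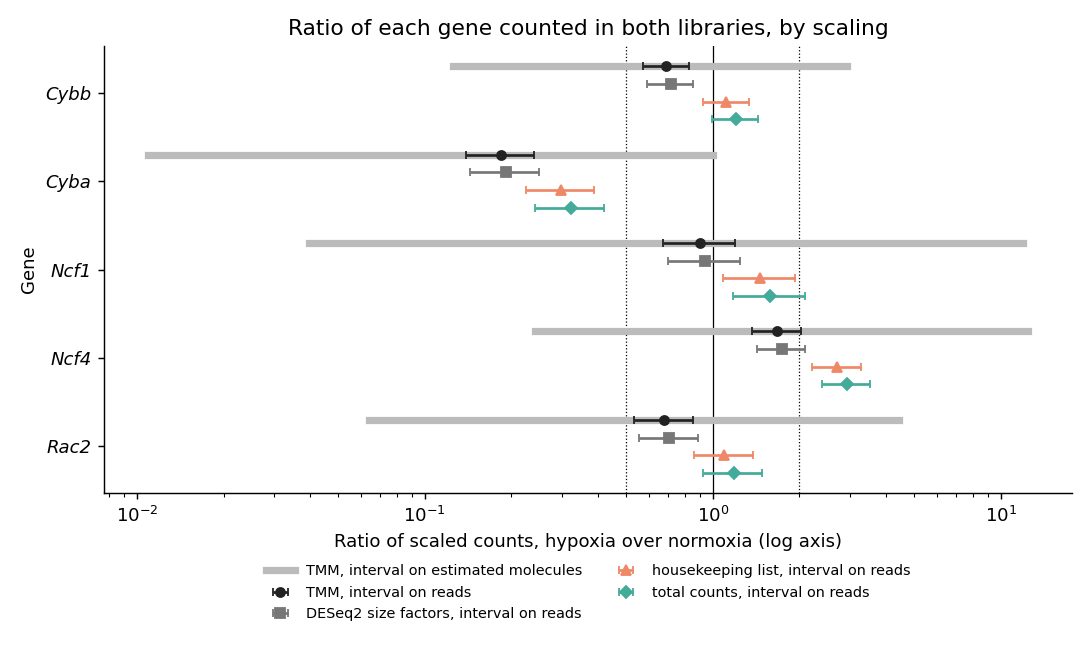
Ratio of scaled counts, hypoxia over normoxia (log axis), for the 5 subunits counted in both libraries, with 4 scalings. Thin bars are 95% intervals on reads, thick grey bars are intervals on estimated molecules with TMM, and dotted lines mark 2-fold. Cyba lies below 1 and Ncf4 above 1 with all 4 scalings, while Cybb, Ncf1 and Rac2 cross 1 between scalings and all 5 grey bars include 1.

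The scalings fall into 2 kinds, as the plot of ratios shows. Relative to total counts, TMM moved every log2 ratio by −0.80 and DESeq2 size factors by −0.75, and the housekeeping list moved it by −0.11. The summed subunit counts had a ratio of 0.500 with TMM (0.454 to 0.551 on reads, 0.232 to 1.003 on molecules) and 0.874 on total counts (0.792 to 0.961). Both are below 1, and the molecule interval on total counts was 0.405 to 1.75. Without Cyba the TMM ratio was 0.664, and without Rac1 it was 0.600.

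**Figure D4:**
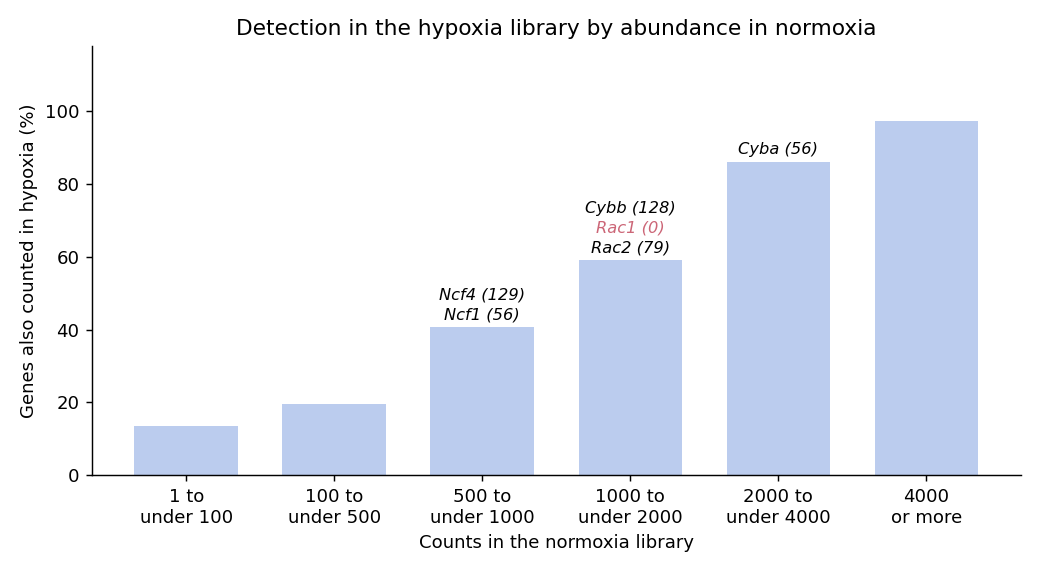
Share of genes that were also counted in the hypoxia library (percent), by their counts in the normoxia library. The subunits are written over the bar they belong to, with their counts in hypoxia in parentheses. The share climbs from 13.4% to 97.4%, and Rac1, with 0 counts, belongs to the bar at 59.2%.

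Whether a gene was counted in hypoxia followed its abundance in normoxia. Of genes with 500 to under 1000 normoxia counts, the range of Ncf1 and Ncf4, 40.8% were counted in hypoxia. For 1000 to under 2000 counts, the range of Cybb, Rac1 and Rac2, it was 59.2%, and for 2000 to under 4000, the range of Cyba, 86.2%. Over the whole range of 500 to under 4000 counts it was 49.6% of 938 genes, beside 5 of 6 subunits. Of all genes counted in normoxia, 25% were counted in hypoxia.

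Of 12 other NADPH oxidase genes, Hvcn1 was the only one counted. Hvcn1, the voltage-gated proton channel that offsets the charge moved by the oxidase, had 0 normoxia counts and 43 hypoxia counts, under the minimum of 50. The other catalytic homologues Nox1, Nox3, Nox4, Duox1 and Duox2 had 0 counts in both libraries, as did their partners Noxa1, Noxo1, Duoxa1 and Duoxa2. Rac3 and the chaperone gene of the flavocytochrome, listed as BC017643 (Cybc1), were also at 0. Of the catalytic subunits Cybb alone was counted. A 0 allows up to 1.38 CPM in normoxia and 20.7 CPM in hypoxia on reads, and up to 316 CPM and 807 CPM if 3 molecules were missed, so lower levels of the others were not detectable at this depth.

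Of 28 regulators of oxidase assembly, 20 were counted in normoxia and 13 in hypoxia. By the size rule with TMM, 1 of 18 measured regulators was higher and 11 were lower, 7 of the latter with 0 counts in hypoxia, beside 11.9% and 75.7% of all measured genes. On total counts 3 were higher and 8 lower, beside 16.1% and 71.5%. The median log2 ratio was −1.82 with TMM, against −7.51 over all measured genes. The share of regulators called lower is thus below the background with both scalings. Detection in hypoxia followed abundance in normoxia, and no background matched on abundance was computed, so this is not shown to be a trait of regulators. The GDP dissociation inhibitor genes, whose products hold Rac in the cytosol, were among the most abundant. Arhgdib had 3048 normoxia counts and 413 hypoxia counts, a TMM ratio of 1.16 (1.05 to 1.29). Arhgdia had 989 and 173, with a ratio between 1.27 and 1.76 on reads, and both met neither call with TMM but were higher on total counts (2.03 and 2.62). Coro1a, an actin-binding protein that also binds p40phox, had the most counts of the list, 4448 and 275, with a ratio of 0.530 (0.468 to 0.599) that did not reach 2-fold. The GTPase gene Rap1b (1996 and 60), the cytoskeletal linker gene Msn (1610 and 58) and the Rac effector kinase gene Pak2 (883 and 39) were lower with TMM, with ratios of 0.258, 0.309 and 0.379. On total counts only Rap1b of these 3 kept a call, at 0.450. Iqgap1, a scaffold that binds Rac, had 1422 normoxia counts and 0 hypoxia counts, at least 55.3-fold lower on reads with TMM, with a molecule interval that included 1. Prkcd, a kinase that phosphorylates p47phox, had 633 and 0.

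The remaining regulators varied more. The higher one was Pik3cd, a leukocyte phosphoinositide 3-kinase, with 144 and 54 counts and a TMM ratio of 3.22 (2.31 to 4.43 on reads, 0.070 to 1352 on molecules). The Rac exchange factor Vav1 had 515 and 65 counts, a ratio of 1.08 (0.823 to 1.40). Rap1a, found with the flavocytochrome, had 425 and 48, a ratio of 0.969 (0.703 to 1.31). The kinase gene Akt1 had 669 and 42, a ratio of 0.538 (0.384 to 0.736), and Mapk3 had 257 and 1, a ratio of 0.033 (0.00084 to 0.188). Dock2, a Rac exchange factor of leukocytes, and Prkca were counted in hypoxia alone, with 48 and 49 counts.

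Of 5 transcription factors that act on oxidase genes, 4 were counted in each library. Spi1, which encodes PU.1, had 1291 normoxia counts and 32 hypoxia counts, a TMM ratio of 0.213 (0.145 to 0.302 on reads, 0.0023 to 2.05 on molecules) and 0.371 on total counts. Irf8 went the other way on reads. It had 168 and 40 counts, with a ratio of 2.04 (1.41 to 2.90 on reads, 0.024 to 476 on molecules). These counts came to about 0.73 and 1.03 molecules. Irf1 had 542 and 0 counts, and the ETS factor gene Elf1 had 339 and 32, a ratio of 0.810 (0.545 to 1.17). Cebpe, a factor of late neutrophil maturation, had 0 counts in normoxia and 36 in hypoxia. Of the 4 measured factors 1 was higher and 2 lower with TMM and on total counts, beside 11.9% and 75.7% of all measured genes with TMM and 16.1% and 71.5% on total counts.

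Enzymes that handle superoxide and peroxide act on what the oxidase makes. Of 18 such genes 13 were measured, and 2 were higher and 8 lower with TMM, 6 of the latter with 0 counts in hypoxia (4 higher and 7 lower on total counts). Over all measured genes 11.9% were higher and 75.7% lower with TMM, and 16.1% and 71.5% on total counts. Superoxide dismutases turn superoxide into hydrogen peroxide. Sod1, the cytosolic form, had 639 normoxia counts and 0 hypoxia counts, whereas Sod2, the mitochondrial form, had 4 and 97, a ratio of 208 (78.7 to 779 on reads, from 0.423 upward on molecules). Gpx1, a glutathione peroxidase, had the most counts, 6585 and 456, a TMM ratio of 0.594 (0.539 to 0.653), and 1.04 on total counts. The peroxiredoxin gene Prdx2 had 3217 and 89, a ratio of 0.237 (0.190 to 0.293 on reads, 0.032 to 0.965 on molecules). Prdx5 had 2687 and 367, a ratio of 1.17 (1.05 to 1.31), Txn1 had 481 and 86, a ratio of 1.53 (1.20 to 1.93), and Prdx1 had 526 and 28, a ratio of 0.457 (0.300 to 0.668). Mpo, which uses the peroxide to make hypochlorous acid, had 506 and 0 counts.

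**Figure D5:**
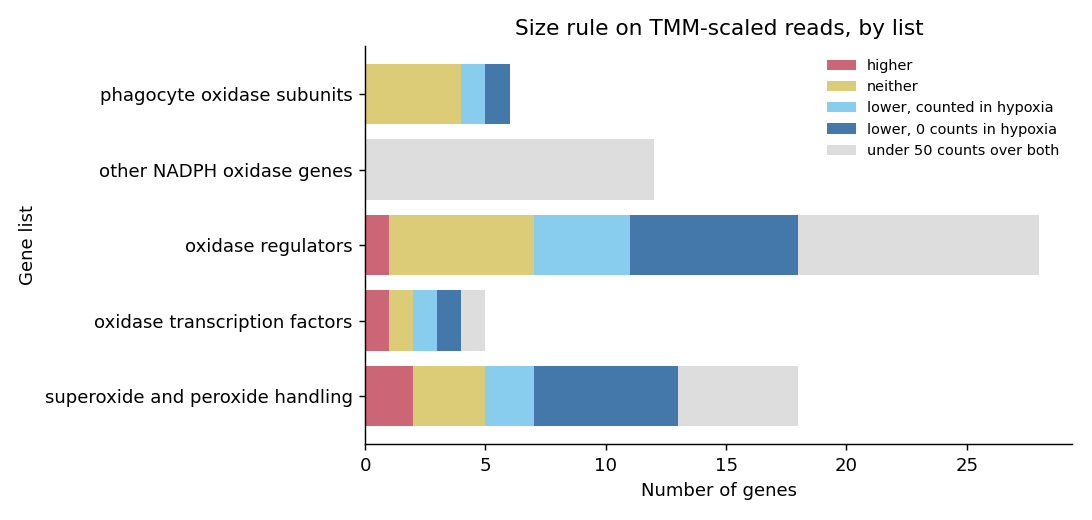
Number of genes in each list by the size rule on TMM-scaled reads, hypoxia over normoxia, with lower genes split by whether they had any counts in hypoxia. Of the 6 subunits 4 met neither direction, 1 was lower with counts in hypoxia and 1 was lower with 0 counts.

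Genes with the most similar counts to each subunit in both libraries were found by the distance of log2(CPM + 1) over the 2 libraries. The nearest to Cybb was Rpl32 (1610 and 134 counts, distance 0.068), followed by Rpl13 and Rps24, all ribosomal protein genes. The nearest to Cyba was Oaz1 (2427 and 56, distance 0.105), followed by Mki67. For Ncf1 it was Sap18 (527 and 57, distance 0.028), then Rpl14 and Txnip. For Ncf4 it was Anxa2 (693 and 134, distance 0.084), then Tspo and Hsp90aa1, and for Rac2 it was Fech (1044 and 80, distance 0.065), then Lamp2 and Ybx1. With 2 libraries this measure holds 2 values per gene, so such neighbours are a description of abundance.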

How the data were processed

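For each of 2 libraries the authors deposited raw read counts per gene, and TPM values (levels by gene length). STAR 2.5.2b, bcl2fastq 2.20 and featureCounts (Subread 1.5.2) are named per the submitters' processing notes. The build, annotation, strand setting and any removal of duplicates were not given in the sources used here. Columns carry codes, and the hypoxia column was assigned by its initial alone. No molecular identifiers are mentioned per the labels' protocols, so intervals and floors on reads treat any copies of a molecule as separate counts. They cover the counting error of reads only, which can be narrower than that of the starting molecules. For Cyba the TMM ratio had 0.139 to 0.240 on reads and 0.011 to 1.003 on estimated molecules. TPM was a fixed multiple of the counts per gene, so it adds no separate measurement.

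Counts were scaled by TMM (edgeR 4.0.16, R 4.3.3), and also by total counts, DESeq2 1.42.0 size factors and a list of 16 housekeeping genes. Ratios have exact conditional binomial (Clopper-Pearson) intervals, TPM and CPM levels exact Poisson intervals. Log2 ratios used a prior count of 0.5. The call rule was tested on simulated counts, drawn as independent reads and scaled by total counts. That simulation held no repeated copies of a molecule and no TMM scaling, so it could not test the rule under either. The members, the lists and the rules were chosen with earlier results of these data known. Named were all 6 members, counted genes of the other oxidase and transcription factor lists, the regulators with most counts (8) or counted in hypoxia, the 6 peroxide genes with most counts and Mpo, and 3 nearest genes per member. Prkcd and Sod2, and the genes between Ncf4 and Rac2, were chosen after seeing their values. Some genes and 1 list that the rule names are not reported here.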

Additional observations from a re-analysis of the deposited data

How the results depend on the processing

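The calls of Cyba and Rac1 as lower held with all 4 scalings, with fold thresholds of 1.5 and 4, and with no minimum count or one of 200. Rac1 had 0 counts in hypoxia, so its ratio is 0 with every scaling and these settings could not change its call. With the molecule interval of the TMM ratio, which reached 1.003 for Cyba and 1.37 for Rac1, neither was called. The median log2 ratio of the 6 subunits turned from −0.55 with TMM to 0.25 on total counts and 0.14 on the housekeeping list. The number of subunits called higher went from 0 to 1, which was Ncf4, on total counts, on the housekeeping list and with a fold of 1.5. The summed subunit ratio of 0.500 moved to 0.874 on total counts, 0.808 on the housekeeping list, 0.664 without Cyba and 0.390 without Ncf4. With the alternative chosen after seeing the data, it was 0.600 without Rac1. In the 4 other lists, 4 genes were called higher with TMM, 8 on total counts and 6 on the housekeeping list. By construction these settings change the scaling factor, the fold threshold or the genes summed. No paired analysis was possible because each group has 1 library. For the same reason no library could be left out. Depth limits all values, since the subunits came to at most about 3.31 estimated molecules each in the hypoxia library.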

Other observations

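Ncf4 and Rac2 lie 297 kb apart on chromosome 15 (GRCm38), with 10 protein-coding genes between them in the count table. Of these, 3 were counted. Csf2rb, the shared beta chain of the receptors for GM-CSF, interleukin 3 and interleukin 5 (78325752 to 78353847), had 1271 normoxia counts and 0 hypoxia counts. Its close copy Csf2rb2 (78282507 to 78305721) had 452 and 0. Mpst, a sulfurtransferase gene (78406416 to 78414013), had 44 and 102. Beside these, Ncf4 had 663 and 129 counts and Rac2 had 1000 and 79. Of genes with 1000 to under 2000 normoxia counts 59.2% were counted in hypoxia, and of those with 100 to under 500 it was 19.6%.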
